A study of Homo sapiens with 6 samples.

Results

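The DNA replication machinery is the set of proteins that unwind, copy, proofread and rejoin the chromosomes once in each S phase. Its members here were the 35 genes whose pathway entry in the deposited table names the KEGG pathway DNA replication, out of 33900 genes in the table, of which 6643 carried any KEGG entry. They were followed in LX-2 cells, an established and immortalised line of human hepatic stellate cells, the liver cells that lay down collagen when activated. All samples were LX-2 cells labelled wild type and grown in DMEM with fetal bovine serum, and the labels give the treatment as the only difference between the groups. Of 6 samples, 3 received rhSema3C, the recombinant human form of the secreted protein Sema3C, at 300 ng/ml for 48 h, and 3 received PBS as control for the same time. The comparison asks how stellate cells respond to Sema3C, and the samples are biological replicates of 1 cell line and not of several donors.

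Replication starts when the MCM helicase, a ring of 6 subunits, is loaded at origins and then activated to unwind the DNA at the fork. DNA polymerase alpha-primase lays the first primers, polymerase epsilon extends the leading strand and polymerase delta the lagging strand, both held on DNA by the ring-shaped clamp PCNA, which the RFC complex loads. RPA coats the exposed single strands, and FEN1, DNA2, the RNase H enzymes and the ligase LIG1 remove primers and join the fragments. Many of these genes are transcribed by E2F factors as cells pass from G1 into S phase. In RNA from whole cultures, a change in the share of cells in S phase and a change in RNA per cell cannot be told apart. From an EdU assay the paper reports that rhSema3C enhanced the proliferation of LX-2 cells, which the RNA levels here do not measure.

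Each sample had between 68267808 and 89245585 counts on genes. The scatter between replicates of a group exceeded counting error (chi-square over degrees of freedom, 12.6 to 20.4), so no library of a group was a copy of another. The 35 genes took 0.463 to 0.478% of all counts in the PBS samples and 0.399 to 0.409% in the rhSema3C samples. Mitochondrial genes took 4.75 to 5.42% and 3.73 to 3.93%. The labelled cell type was checked against 14 stellate cell markers, of which 9 were tested and 6 were lower, with a summed level of 1393 to 1435 FPKM (fragments divided by transcript length and by library size) with PBS and 1124 to 1202 FPKM with rhSema3C. COL1A1, VIM, SPARC and COL6A1 were abundant, whereas LRAT, DES and DCN had at most 12 counts in any sample. Hepatocyte markers reached at most 18 counts. The summed level of 5 endothelial markers was 1.47 to 1.88 FPKM with PBS and 1.94 to 2.36 FPKM with rhSema3C, with VWF at a mean of 0.10 and 0.66 FPKM, and that of 4 epithelial and bile duct markers was 2.37 to 3.92 FPKM and 3.20 to 3.68 FPKM, mostly KRT7. Of these 2 endothelial genes, KDR and TEK with up to 433 and 298 counts, and 1 epithelial gene were tested, and none was called. VWF, with up to 653 counts, averaged under 0.5 FPKM and was not tested, so its rise has no call. PECAM1, CDH5 and EPCAM reached at most 61, 16 and 10 counts. Of 5 immune markers in the table only CD68, a lysosomal protein, was tested, and it was lower. Their summed level was 90.5 to 98.2 FPKM with PBS and 63.9 to 70.1 FPKM with rhSema3C, and PTPRC, the defining marker, reached at most 12 counts. The part of these shifts in the results was not tested.

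Of the 35 replication genes, all of which passed the filter of a mean FPKM of at least 0.5, 7 were higher and 19 were lower with rhSema3C at an adjusted p under 0.05 (edgeR quasi-likelihood test) and 9 passed in neither direction. So 26 were called, against 62.3% of all genes tested. Replication genes were lower in 54.3% and higher in 20.0% of cases. Over the 14178 genes tested, 31.7% were higher and 30.6% were lower by the same rule, so the share that rose was below the background and the share that fell was above it. That background holds genes of all levels, and among genes averaging 5 FPKM or more the shares lay closer together, as given below. The 3 rhSema3C values lay wholly above the 3 PBS values for 9 of the 35 genes and wholly below them for 20, against 34.6% and 33.3% of all genes tested (67.8% in either direction). None of the 35 passed a fold change of 2 at an unadjusted p under 0.05, which 5.54% of all genes tested did. At that share few of 35 genes would pass. At an absolute log2 fold change above 0.5 and an adjusted p under 0.05, 2 (5.71%) were higher and 7 (20.0%) lower. The shares of all genes tested were 14.7% and 13.3%. The median log2 fold change was -0.18 for the replication genes and 0.024 for all genes. The difference of each rhSema3C sample from the PBS mean, taken as the median over the 35 genes, was -0.11, -0.19 and -0.20, with an SD of 0.048 over the 3 samples.

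The split into genes that rose and fell moved with the scaling between samples. Counts were scaled by TMM factors, which assume that most genes do not change and were 0.958 to 0.968 in the PBS samples and 1.03 to 1.04 in the rhSema3C samples. With these factors 62.3% of all genes tested were called, small changes included, so the calls do not bear out this assumption. With library size alone the split was 11 higher and 15 lower (39.9% and 24.1% of all genes tested), and with TPM, the FPKM values rescaled to one sum in every sample, it was 15 higher and 10 lower (48.9% and 17.1%). The median of all genes moved to 0.13 and 0.23 under these scalings, and the median of the replication genes lay 0.21 and 0.18 below it, as against 0.21 with TMM factors (log2 scale). A correction for GC content and transcript length gave 4 higher and 19 lower (24.8% and 31.3%). Limma on log2(FPKM + 1) gave 11 and 15 (38.6% and 24.4%) and on log2(FPKM + 0.1) 11 and 15 (38.3% and 24.3%). For genes averaging 5 FPKM or more, 32 of the 35, the split was 9 and 15, or 28.1% and 46.9% (37.7% and 37.3% of all such genes). There the median of the replication genes differed from that of all genes by only -0.080, the smallest distance over these settings. DESeq2 (31.5% and 31.8%), median-of-ratios scaling (30.8% and 31.4%) and no filter on low values (12.5% and 12.3%) each gave 7 and 19. Under these settings the median of the replication genes lay below that of all genes, but the direction of genes with small changes depended on the choice. With library size alone POLA1, PRIM1, RPA3 and DNA2 were called higher in addition, and POLE, POLD4, RPA1 and RPA2 lost their call as lower. Calls of the same direction in every setting that gave a value, those that left out 1 sample included, were obtained for 14 genes, over 17 settings for each but RNASEH2B, which had 16 because its FPKM averaged under 5. Of these POLD3, RNASEH2B, RFC1 and RFC5 were higher, and FEN1, RNASEH2C, POLE4, MCM5, LIG1, MCM7, MCM2, POLE3, MCM4 and MCM3 were lower.

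**Figure D1:**
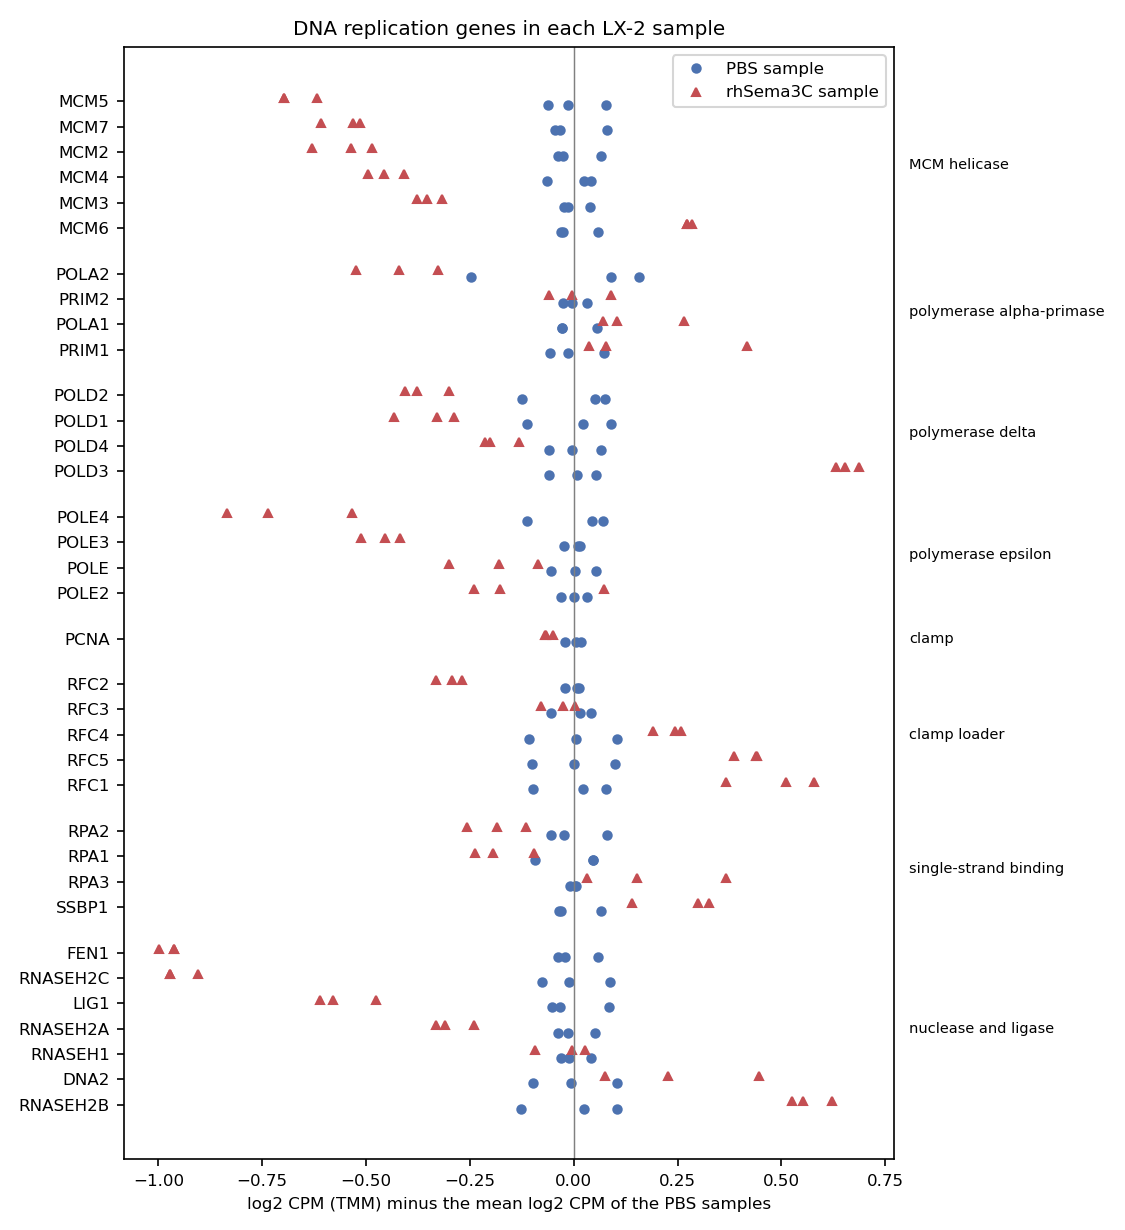
Level of each of the 35 DNA replication genes in each sample, as log2 CPM (counts scaled to library size with TMM factors) minus the mean of the 3 PBS samples, with genes grouped by role. Circles are PBS and triangles rhSema3C samples: FEN1 and RNASEH2C lie farthest to the left, POLD3 farthest to the right and MCM6 apart from the other 5 MCM genes, and the small shifts of POLE, POLD4, RPA1 and RPA2 change sign with TPM scaling.

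In the MCM helicase 5 of 6 genes, MCM2, MCM3, MCM4, MCM5 and MCM7, were lower with rhSema3C, while MCM6 was higher. The summed level of the 6 genes fell from 1985, 2102 and 1972 CPM (counts scaled to library size with TMM factors) in the PBS samples to 1496, 1407 and 1458 CPM in the rhSema3C samples. MCM5 had 230.5, 254 and 238 CPM in PBS replicates 1 to 3 and 157, 148 and 148 CPM in rhSema3C replicates 1 to 3. The groups stood far apart, and the decrease was 37.2% (log2 fold change -0.67 ± 0.047, SE; adjusted p = 4.46e-07). MCM7 went from 579.8, 627 and 575 CPM to 416, 389 and 410.2 CPM, in the same order of samples (-0.55 ± 0.047, adjusted p = 1.83e-06). For MCM2 the values were 386, 415 and 389.6 CPM against 283, 256 and 274 CPM (-0.55 ± 0.049, adjusted p = 2.54e-06). All treated values of these genes lay below all controls. MCM4 was at 427, 432 and 402 CPM and then 316, 298 and 306 CPM (-0.45 ± 0.044, adjusted p = 5.19e-06). MCM3, which had the smallest decrease among the 5, was at 289.7, 303 and 292 CPM and 236, 227 and 231 CPM (-0.35 ± 0.040, adjusted p = 1.83e-05). Neither gene's groups overlapped.

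MCM6 moved the other way. Its PBS samples had 71.3, 71.5 and 75.9 CPM and its rhSema3C samples 88.1, 88.1 and 88.8 CPM, so that the treated samples were nearly identical and all above the controls. The increase was 21.1% (log2 fold change 0.28 ± 0.044, adjusted p = 2.26e-04). With the correction for GC content and length the log2 fold change of MCM6 was 0.044 (adjusted p = 0.381), while the other 5 genes stayed lower, from -0.46 for MCM4 to -0.23 for MCM3. The rise of MCM6 therefore held under the scalings but not under that correction, and the gap between MCM6 and the other subunits held under both. Per transcript length, MCM6 was the lowest of the 6 genes in the PBS samples, at 16.2, 16.1 and 17.3 FPKM, and MCM7 the highest, at 124, 133 and 124 FPKM. In the rhSema3C samples MCM6 had 21.4, 21.4 and 21.7 FPKM and MCM5 21.7, 20.6 and 20.6 FPKM, values that did not differ beyond their spread. The FPKM of MCM5 implied a transcript of 7.44 kb against 4599 bases for its longest annotated transcript. For MCM6 it implied 4.23 kb against 3736 bases, so the closeness of these FPKM values depends on the lengths used. With the same limit, MCM2 and MCM3 were close to each other in the PBS samples, at 77.0, 82.0 and 77.8 FPKM and 74.7, 77.4 and 75.4 FPKM. The unevenness within the ring is also seen without any scaling between samples. The log2 ratio of MCM6 counts to the mean of the other 5 genes was -2.35, -2.43 and -2.26 in the PBS samples and -1.60, -1.51 and -1.55 in the rhSema3C samples, a rise of 0.79.

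**Figure D2:**
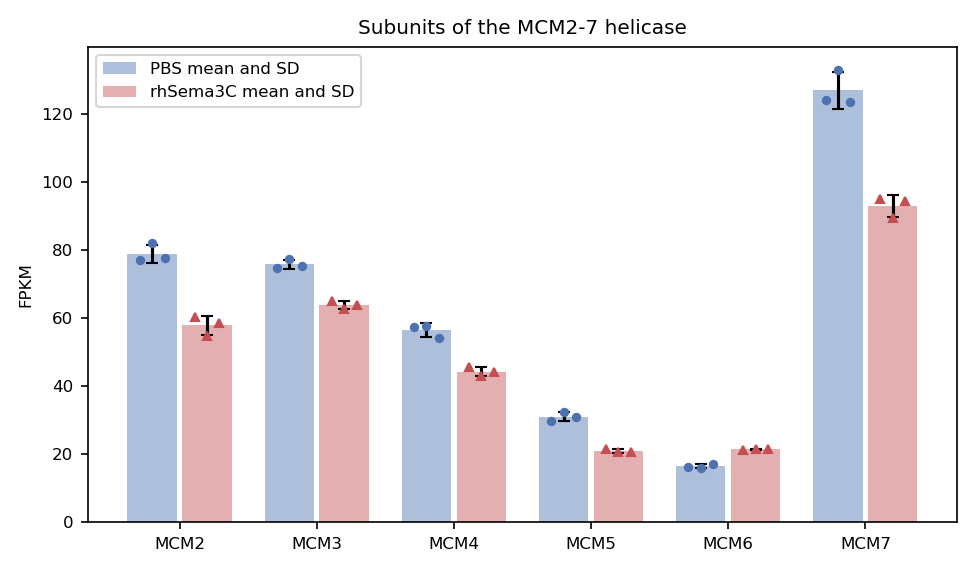
FPKM of the 6 MCM helicase genes, with bars for the mean and error bars for the SD of 3 samples per group, and points for each sample. MCM6 rises from 16.5 to 21.5 FPKM, while the other 5 genes fall.

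The promoters of MCM6 and MCM2 are shown because the genes moved in opposite directions and both windows hold E2F letters. Each window is the RefSeq sequence (GRCh38.p14) from 250 bases before to 50 bases after the transcription start, written 5′ to 3′ on the strand of the gene, with the E2F letters in capitals. The letters searched were TTTCCCGC, TTTGGCGC, TTTCGCGC and TTTGCCGC on both strands. MCM6 lies on the minus strand (chr2:135876394-135876693) and MCM2 on the plus strand (chr3:127598161-127598460).
MCM6: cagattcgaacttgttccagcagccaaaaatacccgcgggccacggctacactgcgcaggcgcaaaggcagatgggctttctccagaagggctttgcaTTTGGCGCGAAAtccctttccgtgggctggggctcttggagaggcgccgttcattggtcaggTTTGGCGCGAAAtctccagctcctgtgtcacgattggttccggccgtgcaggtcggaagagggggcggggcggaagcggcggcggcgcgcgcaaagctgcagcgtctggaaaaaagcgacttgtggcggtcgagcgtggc
MCM2: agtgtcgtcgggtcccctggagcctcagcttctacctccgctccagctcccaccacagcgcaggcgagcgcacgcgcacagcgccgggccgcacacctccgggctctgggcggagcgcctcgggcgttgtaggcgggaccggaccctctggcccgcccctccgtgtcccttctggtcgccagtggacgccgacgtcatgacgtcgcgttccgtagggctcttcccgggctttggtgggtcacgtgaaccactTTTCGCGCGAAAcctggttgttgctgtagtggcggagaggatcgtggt
The MCM6 window held 4 matches in 2 pairs, each pair sharing 4 bases, and the MCM2 window held 2 matches that share 4 bases and lie just after the start. Matches in MCM3 and MCM7, both on the minus strand and both lower with rhSema3C, are shown in windows of 30 bases, at chr6:52284898-52284927, chr6:52284728-52284757, chr7:100101566-100101595 and chr7:100101388-100101417.
MCM3, first match: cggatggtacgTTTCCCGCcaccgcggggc
MCM3, second match: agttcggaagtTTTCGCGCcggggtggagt
MCM7, first match: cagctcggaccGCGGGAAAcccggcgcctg
MCM7, second match: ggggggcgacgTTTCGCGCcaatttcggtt
So MCM6, which rose, and MCM2, MCM3 and MCM7, which fell, all carried these letters. A window was given for 29 of the 35 genes, and none for DNA2, MCM4, MCM5, POLD3, RPA2 and RPA3. E2F letters were found in 13 of the 29 (44.8%), against 6.91% of the 9951 genes tested that had a window. A gene counted as having a match if any of its windows held one, and 8 of the 29 had more than 1 window. MCM7, PCNA and SSBP1 also had windows without a match. Counted per window and not per gene, the share was 3.32% of all 35116 windows. The genes with a match were split into 2 higher, 7 lower and 4 not called, with a median log2 fold change of -0.19. Those without a match were split into 4, 9 and 3, with a median of -0.18. The presence of the letters thus did not separate the genes that fell from those that rose. For comparison, the CCAAT box was in 51.7% of the 29 and 43.5% of the genes tested, the GC box GGGCGG in 72.4% and 77.5%, and the letters TTTGAA of the cell cycle homology region in 3.45% and 13.1%, on either strand. A match of letters says nothing of whether a factor was bound in these cells.

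Polymerase alpha-primase changed little. The sum of its 4 genes was 203, 221 and 216 CPM in the PBS samples and 197, 212 and 190.5 CPM in the rhSema3C samples. POLA2, the accessory subunit of the polymerase, was lower (-0.43 ± 0.092, adjusted p = 0.00169). It had 74.4, 98.4 and 94.0 CPM with PBS and 70.4, 65.9 and 61.4 CPM with rhSema3C, so that PBS replicate 1 lay close to the treated samples, and it did not pass with TPM scaling (-0.19). POLA1, the catalytic subunit, stood at 59.3, 56.0 and 55.9 CPM and 59.9, 68.5 and 61.3 CPM (0.15 ± 0.060, adjusted p = 0.0507), just outside the threshold, and passed it without PBS replicate 1 (adjusted p = 0.0450) or without rhSema3C replicate 1 (adjusted p = 0.0279). PRIM1, the primase that makes the RNA primer, had 22.8, 21.5 and 20.8 CPM and 22.9, 28.9 and 22.2 CPM (0.19 ± 0.10, adjusted p = 0.135), with rhSema3C replicate 2 above the other samples. PRIM2, the large primase subunit, gave 0.010 ± 0.059 (adjusted p = 0.896). It was higher with TPM scaling (0.23, adjusted p = 0.00577) and lower after GC correction (-0.28, adjusted p = 3.55e-04). POLA1 and PRIM1 were called higher with library size alone (0.26 and 0.30, adjusted p = 0.00320 and 0.0257) and with TPM (0.36 and 0.39, adjusted p = 9.62e-04 and 0.00648), and gave -0.10 and -0.14 after GC correction, where neither passed.

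In polymerase delta 3 subunits were lower and 1 was higher. POLD3, an accessory subunit that also serves in repair synthesis, had the largest increase of all 35 genes. It had 60.3, 57.5 and 62.2 CPM in the PBS samples and 96.5, 94.2 and 92.9 CPM in the rhSema3C samples. The groups were far apart relative to their spread, and the increase was 57.6% (0.66 ± 0.047, adjusted p = 4.91e-07). POLD1, the catalytic subunit, fell from 115, 132 and 126 CPM to 98.9, 92.1 and 102 CPM (-0.35 ± 0.058, adjusted p = 2.94e-04), and POLD2 from 128, 125 and 111 CPM to 98.4, 91.4 and 93.2 CPM (-0.36 ± 0.057, adjusted p = 1.89e-04). Neither gene's groups overlapped, but neither gene passed with TPM scaling or after GC correction, where they gave -0.092 and -0.11. POLD4, the smallest subunit, was slightly lower (-0.18 ± 0.054, adjusted p = 0.0122), with opposite sign under TPM scaling (0.044) and GC correction (0.065). The increase of POLD3 was still 0.42 after GC correction (adjusted p = 6.19e-06).

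Polymerase epsilon fell mainly through its histone-fold subunits POLE3 and POLE4, which help to hold the enzyme on DNA. POLE4 had 46.6, 52.0 and 52.9 CPM with PBS and 28.3, 30.3 and 34.8 CPM with rhSema3C, a decrease of 38.4% (-0.70 ± 0.084, adjusted p = 2.67e-05). POLE3 had 209.8, 210.5 and 205 CPM and 156, 152 and 146 CPM, a decrease of 27.4% (-0.46 ± 0.041, adjusted p = 2.47e-06). In both genes all treated samples were below all controls, and both remained lower after GC correction (-0.64 and -0.58). The catalytic subunit POLE had 137, 147 and 142 CPM and 134, 115 and 125 CPM (-0.19 ± 0.055, adjusted p = 0.0120). Its lowest control and highest treated sample nearly met, and the gene lost its call without rhSema3C replicate 2 (adjusted p = 0.0540), and gave 0.037 with TPM scaling and 0.012 after GC correction. POLE2, the least abundant of the 4 by FPKM, at 3.19, 3.31 and 3.27 FPKM with PBS and 2.95, 3.68 and 3.10 FPKM with rhSema3C, did not pass (-0.11 ± 0.11, adjusted p = 0.419), but after GC correction it was lower at -0.34 (adjusted p = 0.0153). The promoter of POLE4, a gene with an E2F match that fell, has its match at chr2:74958601-74958630, written on the plus strand, which is that of the gene.
POLE4: ctccagcccgcGCGGGAAAgggcctgcgcc

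PCNA, the clamp, did not pass the test although its 2 groups did not overlap. Its PBS samples had 295, 300.5 and 303 CPM and its rhSema3C samples 289, 285 and 286 CPM, a difference of -0.062 on the log2 scale (adjusted p = 0.172), with an interval of -9.54 to 1.44% for the change. Its direction was not settled by the data. On the FPKM scale PCNA was at 198, 199.6 and 203 FPKM with PBS and 207, 205 and 206 FPKM with rhSema3C, it was higher with TPM scaling (0.17, adjusted p = 0.00292), and it was lower after GC correction (-0.24, adjusted p = 1.70e-04). PCNA was also the most abundant of the 35 genes by FPKM. A promoter window of PCNA holds an E2F match at chr20:5126663-5126692, written on the minus strand, which is that of the gene, and another window of PCNA holds none.
PCNA: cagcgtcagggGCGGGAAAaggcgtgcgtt

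The clamp loader was the only one of these groups whose summed CPM was higher with rhSema3C under TMM scaling, at 415, 392 and 399.7 CPM with PBS and 419, 441 and 423 CPM with rhSema3C. RFC1, the large subunit, rose by 40.1%. It had 83.9, 74.2 and 80.6 CPM and 102, 119 and 113 CPM (0.49 ± 0.062, adjusted p = 4.36e-05). RFC5 rose by 33.8%, from 56.4, 49.1 and 52.7 CPM to 71.3, 71.5 and 68.8 CPM (0.42 ± 0.058, adjusted p = 7.32e-05). In both genes each treated sample was above each control, and after GC correction both remained higher, at 0.21 and 0.23. RFC4 was higher at 0.23 ± 0.064 (adjusted p = 0.00896) but at 0.063 after GC correction (adjusted p = 0.360). RFC2, the most abundant of the 5 by FPKM, fell from 162, 162 and 159 CPM to 132, 134 and 128 CPM (-0.30 ± 0.039, adjusted p = 4.80e-05), with no overlap, and gave -0.071 with TPM scaling, which did not pass. RFC3 gave -0.034 ± 0.049 (adjusted p = 0.561), was higher with TPM scaling (0.19, adjusted p = 0.00510) and was lower after GC correction (-0.37, adjusted p = 4.96e-05). The subunits of this complex thus moved in both directions.

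The single-strand binding genes shifted by little. RPA1 and RPA2, the larger subunits of RPA, were lower by 11.5% and 12.1% (-0.18 ± 0.053 and -0.19 ± 0.055, adjusted p = 0.0127 and 0.0116). RPA1 stood at 219.6, 242 and 242 CPM and 219, 205 and 199 CPM, where PBS replicate 1 nearly met rhSema3C replicate 1. RPA1 lost its call without PBS replicate 3 (adjusted p = 0.0536) or rhSema3C replicate 3 (adjusted p = 0.0709), RPA2 lost it without rhSema3C replicate 3 (adjusted p = 0.0670), and with TPM scaling both were slightly above 0 (0.051 and 0.042). RPA3, the smallest subunit, had 18.1, 18.3 and 18.3 CPM with PBS and 20.3, 23.6 and 18.6 CPM with rhSema3C. Its treated samples spread widely above tight controls and it did not pass (0.19 ± 0.094, adjusted p = 0.101), though it passed as higher without rhSema3C replicate 3 (adjusted p = 0.0430), with library size alone (0.30, adjusted p = 0.0160) and with TPM (0.39, adjusted p = 0.00307). SSBP1, which binds single-stranded DNA in mitochondria and not at the nuclear fork, rose by 19.4% (0.26 ± 0.058, adjusted p = 0.00263) and gave -0.073 after GC correction.

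The nucleases and the ligase held the largest decreases. Their summed level was 781, 802 and 756 CPM in the PBS samples and 514, 509 and 497 CPM in the rhSema3C samples. FEN1, the flap endonuclease that trims the ends of Okazaki fragments, had 325, 347 and 329 CPM with PBS and 171, 167 and 171 CPM with rhSema3C. Its treated samples were within a few CPM of each other and far below the controls, and the decrease was 49.1% (-0.97 ± 0.042, adjusted p = 1.37e-08). LIG1, which seals the nicks that FEN1 leaves, had 113, 123 and 112 CPM and 83.4, 77.7 and 75.9 CPM, a decrease of 31.9% (-0.56 ± 0.053, adjusted p = 4.16e-06). These genes of the last step in joining fragments fell together without overlap of the groups, whereas DNA2, the other flap nuclease, had 13.9, 12.9 and 12.1 CPM and 15.2, 17.6 and 13.7 CPM and did not pass (0.25 ± 0.11, adjusted p = 0.0656). DNA2 passed as higher without rhSema3C replicate 3 (adjusted p = 0.0259), with library size alone (0.36, adjusted p = 0.0137) and with TPM (0.43, adjusted p = 0.00439), and gave -0.086 after GC correction.

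RNase H2, which removes RNA and single ribonucleotides from DNA, changed unevenly over its 3 subunits. RNASEH2C, an accessory subunit, had 156, 146 and 139 CPM with PBS and 74.7, 78.3 and 74.7 CPM with rhSema3C, a decrease of 48.3% (-0.95 ± 0.050, adjusted p = 5.18e-08). RNASEH2B, the other accessory subunit, had 30.5, 28.9 and 26.0 CPM and 41.6, 43.7 and 40.8 CPM, an increase of 47.7% (0.56 ± 0.073, adjusted p = 4.56e-05). The catalytic subunit RNASEH2A had 89.04, 93.1 and 87.6 CPM and 76.1, 71.4 and 72.5 CPM (-0.29 ± 0.046, adjusted p = 2.08e-04). In none of the 3 did the groups overlap. After GC correction the values were -0.71, 0.22 and -0.18 for the subunits C, B and A, so the opposite directions remained, and with TPM RNASEH2A did not pass (-0.066, adjusted p = 0.208). The FPKM of RNASEH2B was low for its counts, since the table's FPKM implied a transcript of 27.0 kb against 7282 bases for the longest annotated transcript, and its level is not compared with those of other genes. RNASEH1, a separate enzyme of nucleus and mitochondria, stayed near 0 (-0.023 ± 0.055, adjusted p = 0.731), and was higher with TPM scaling (0.20, adjusted p = 0.00746).

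Several of these genes overlap others in the genome, and whether the counting used strand is not given in the sources used here. Of the 35 genes, 24 overlap another gene of the table and 9 overlap 1 with at least 10% of their own counts. FEN1 (chr11:61792911-61797238, plus strand, GRCh38) shares 4259 bases with FADS2 (chr11:61792980-61867354, plus strand), a fatty acid desaturase gene whose counts were 404% of those of FEN1 and which rose by 0.87 on the log2 scale (adjusted p = 3.31e-08), opposite to FEN1. RNASEH2C (chr11:65714005-65720818, minus strand) shares 5600 bases with KAT5 on the plus strand, which fell (-0.42, adjusted p = 1.40e-04). RFC4 shares 18 bases with EIF4A2, which rose (0.64, adjusted p = 8.03e-07), and PRIM1 shares 333 bases with NACA, which also rose (0.57, adjusted p = 1.18e-05). POLA2 shares 43662 bases with AP000944 on the same strand, whose counts were 56.3% of those of POLA2. POLA1, POLD4, RPA1 and RPA3 are the remaining genes of this kind. How reads were divided between such pairs was not tested.

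The uneven change of partner subunits was examined as ratios of counts within each sample, which no scaling between samples can alter. Pairs were picked after the values had been seen, so their separation describes these pairs and is not a test. Single genes separated the groups in 67.8% of all genes tested. In all 14 ratios computed, 12 of them between replication genes, the 3 rhSema3C samples lay apart from the 3 PBS samples, and each gave an exact two-sided permutation p of 0.1, before and after Benjamini-Hochberg adjustment, the smallest that 3 against 3 samples allow. The log2 ratio of RNASEH2B to the mean of RNASEH2A and RNASEH2C moved most among the 12, from -1.95, -2.01 and -2.09 to -0.86, -0.77 and -0.85. The ratio of POLD3 to the mean of POLD1, POLD2 and POLD4 was -0.66, -0.77 and -0.55 in the PBS samples. In the rhSema3C samples it was 0.28, 0.34 and 0.26. That of FEN1 to PCNA was 0.14, 0.21 and 0.12 with PBS and -0.76, -0.77 and -0.74 with rhSema3C. In these 3 ratios the distance between the groups was several times their spread. Counts are not divided by transcript length, so a log2 ratio of 0 is not an equal level. By mean FPKM, FEN1 lay below PCNA in both groups, at 142 against 200 FPKM with PBS and 77.8 against 206 FPKM with rhSema3C. RFC1 to RFC2 rose by 0.78 and RFC5 to RFC2 by 0.72, while POLA2 to POLA1 fell by 0.57, POLE4 to POLE by 0.51 and MCM5 to MCM3 by 0.32. A ratio shows unequal change and does not say which of the partners moved, and it keeps any effect of GC content on the counts.

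**Figure D3:**
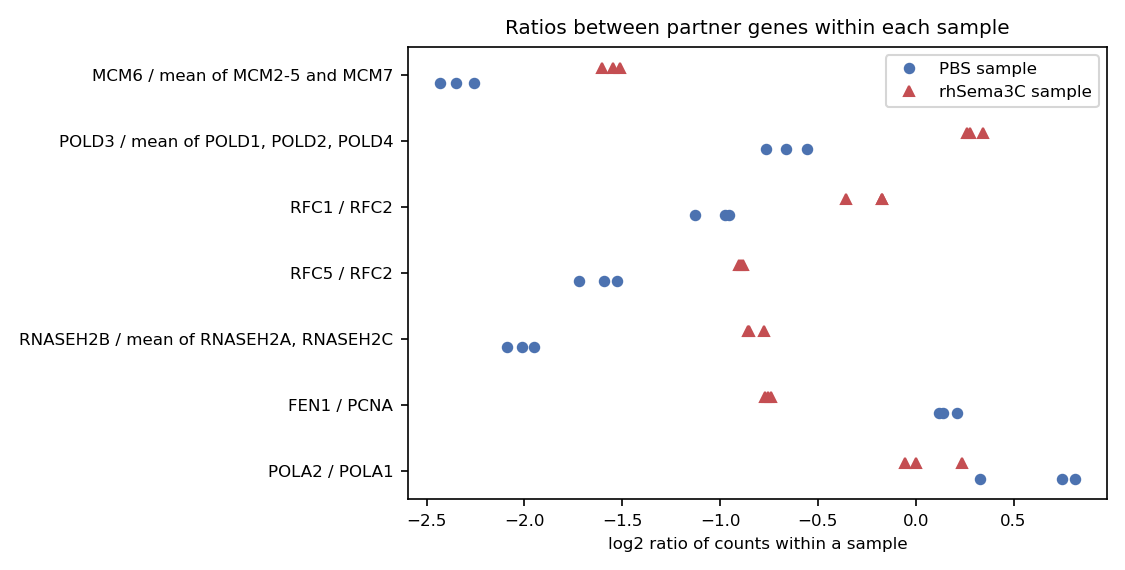
Log2 ratio of counts between partner genes within each sample, circles for PBS and triangles for rhSema3C. The groups do not overlap in any of the ratios shown, which were picked after the values had been seen. Counts are not divided by transcript length, so 0 does not mark an equal level.

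The change of a replication gene went with its base composition. Over the 35 genes, Spearman's rho between log2 fold change and GC content of the longest transcript was -0.77 and Pearson's r was -0.73. Over 14096 genes tested, rho was -0.48 and r was -0.39. Genes that were higher had a median GC content of 43.0%, those not called 42.9%, those that were lower 54.5%, and all genes tested 48.7%. Set against genes of like GC content, in bins of 2 percentage points, 26 of the 35 lay below the median of their bin and 9 above it, 12 lay below the middle 50% of the bin and 3 above it. Those below it were FEN1, RNASEH2C, POLE4, MCM5, LIG1, MCM7, MCM2, POLE3, MCM4, POLE2, RFC3 and PRIM2, and those above it RFC5, RNASEH2B and POLD3. MCM6 lay at the median of 0.28 for genes of 42 to 44% GC. The change was also related to the level, with rho -0.59 over the 35 genes and -0.25 over all genes against log2 mean FPKM, and hardly to transcript length, with rho 0.074. In the PBS samples the replication genes called lower had a median of 36.9 FPKM, those called higher 11.9 FPKM and all genes tested 4.58 FPKM. Genes come from the same 6 libraries and are not independent replicates, and the part of GC content in these changes was not tested beyond the correction given above.

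**Figure D4:**
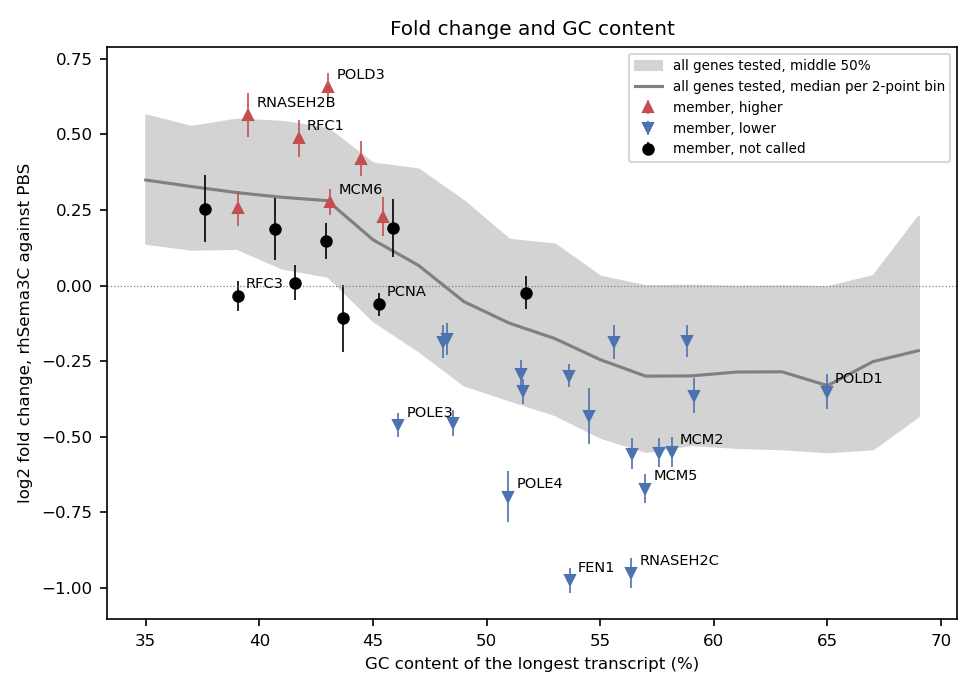
Log2 fold change (rhSema3C against PBS, TMM scaling) of the 35 replication genes against the GC content of the longest transcript, in percent, with vertical bars for the SE, and the line and band for the median and the middle 50% of all genes tested in bins of 2 percentage points. Genes called lower (downward triangles) lie at higher GC content than those called higher (upward triangles).

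**Figure D5:**
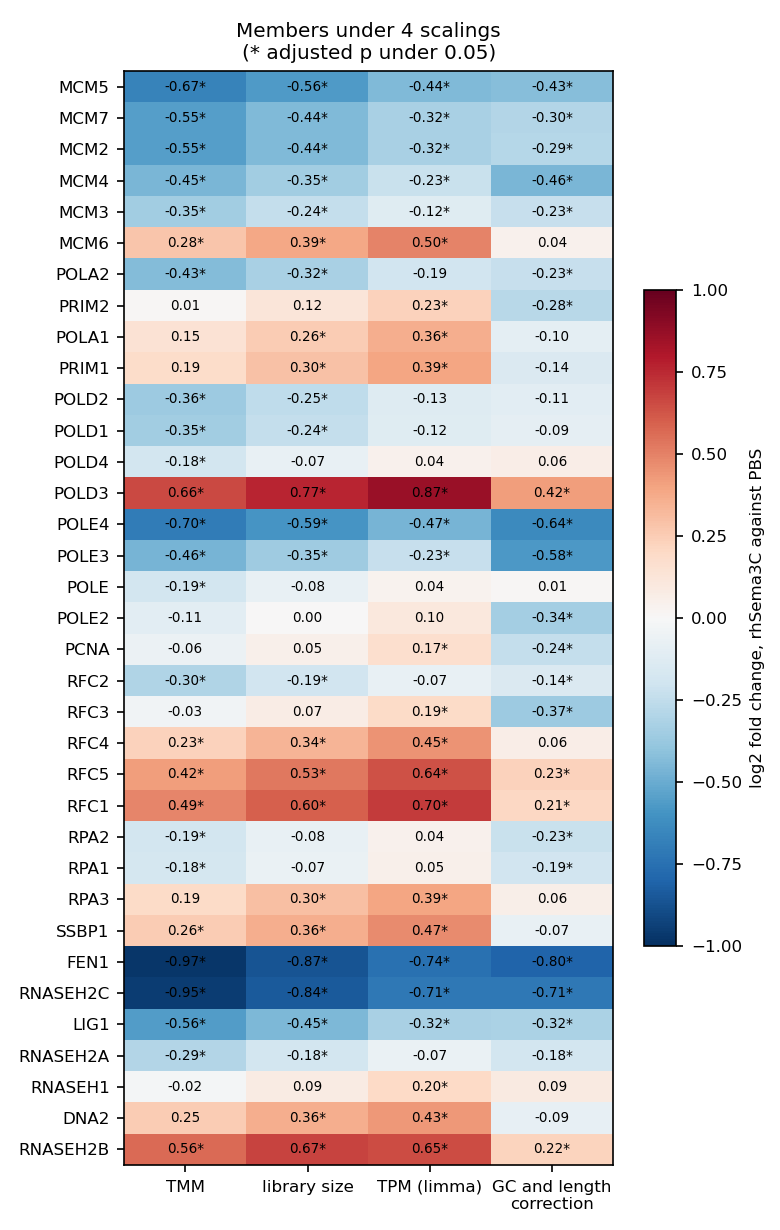
Log2 fold change of the 35 replication genes under TMM scaling, library size alone, TPM with limma, and the correction for GC content and length, with asterisks for an adjusted p under 0.05. MCM2, MCM3, MCM4, MCM5 and MCM7 are lower in all 4 columns. PCNA, RFC3, PRIM2, POLE, POLE2, POLD4, RPA1, RPA2, RNASEH1, POLA1, PRIM1, DNA2 and SSBP1 change sign.

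The genes that act just before and beside these proteins moved in both directions, in shares near those of all genes tested (31.7% higher and 30.6% lower). Those background shares were 39.9% and 24.1% with library size alone, 48.9% and 17.1% with TPM, and 24.8% and 31.3% after GC correction. Among 24 genes of origin licensing and helicase activation, 8 were higher and 9 lower (12 and 7 with library size alone, 14 and 6 with TPM, 4 and 11 after GC correction). DBF4, which activates the CDC7 kinase that fires origins, rose (0.73 ± 0.11, adjusted p = 1.40e-04), as did the origin recognition subunits ORC3 (0.51) and ORC5 (0.51) and MTBP, a partner of the origin firing factor TICRR (0.61, but 0.27 and not past the threshold after GC correction). GINS4, GINS2 and GINS3, which with CDC45 turn the loaded MCM ring into the active helicase, fell (-0.70, -0.50 and -0.55), as did the helicase RECQL4 (-0.64). CDT1, which loads MCM, was lower (-0.27 ± 0.048, adjusted p = 5.13e-04) and so was CDC6, its partner (-0.18 ± 0.046, adjusted p = 0.00536). CDT1 did not pass with TPM (-0.043, adjusted p = 0.378) or after GC correction (-0.012, adjusted p = 0.846), and CDC6 did not pass with library size alone (-0.070, adjusted p = 0.187) or TPM (0.048, adjusted p = 0.344). CDC45 (0.10 ± 0.050, adjusted p = 0.113), MCM10 (-0.068 ± 0.072, adjusted p = 0.430) and the CDT1 inhibitor GMNN (0.17 ± 0.092, adjusted p = 0.140) did not pass. With TPM CDC45 (0.32, adjusted p = 4.90e-04) and GMNN (0.38, adjusted p = 0.00588) were higher, and after GC correction CDC45 was higher (0.19, adjusted p = 0.00179) and MCM10 lower (-0.30, adjusted p = 0.00346). Of 11 genes of fork protection and cohesion, 3 were higher and 4 lower (3 and 3, 6 and 1, and 2 and 6 under the same settings). ATAD5, which unloads PCNA, rose by 0.66, and CHTF8, of an alternative clamp loader, was lower at -0.64 while its partner CHTF18 was higher at 0.22. The cohesin acetyltransferase ESCO2 (-0.46) and the ubiquitin ligase TRAIP (-0.39) were lower but did not pass with TPM (-0.21 and -0.16), and WDHD1, which links polymerase alpha to the helicase, was higher (0.35) but did not pass after GC correction (adjusted p = 0.993).

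Nucleotide supply and chromatin assembly genes were mostly lower. Over all genes tested, 30.6% were lower and 31.7% higher with TMM factors. The shares were 24.1% and 39.9% with library size alone, 17.1% and 48.9% with TPM, and 31.3% and 24.8% after GC correction. Of 12 nucleotide supply genes 8 were lower and 2 higher (7 and 3 with library size alone, 6 and 4 with TPM, 10 and 1 after GC correction), with a median log2 fold change of -0.32. RRM2, the S phase subunit of ribonucleotide reductase, fell from 23.4, 22.9 and 22.9 FPKM to 13.3, 13.6 and 13.6 FPKM (-0.87 ± 0.038, adjusted p = 1.40e-08). Its groups were far apart. RRM1, the large subunit, was slightly higher (0.12 ± 0.041, adjusted p = 0.0292), a call that was lost without PBS replicate 2 or 3 or without rhSema3C replicate 2 or 3 (adjusted p from 0.0587 to 0.112), which left 1 of the 12 genes higher, and RRM1 was lower after GC correction (-0.10, adjusted p = 0.0225). RRM2B, the subunit used outside S phase, rose (0.67 ± 0.082, adjusted p = 3.31e-05). The thymidine kinase TK1 (-0.76) and the thymidylate synthase TYMS (-0.33) were lower, and so were DCTPP1 (-0.91) and SAMHD1 (-0.57), which break nucleotides down. Of 9 genes of replication-coupled chromatin assembly 6 were lower and 2 higher (6 and 3 under both scalings, and 7 lower with none higher after GC correction), with a median of -0.53. UHRF1, which recruits maintenance methylation to new DNA, fell from 23.5, 25.3 and 24.5 FPKM to 13.7, 14.0 and 13.7 FPKM (-0.93 ± 0.044, adjusted p = 2.89e-08). The histone chaperones ASF1B (-0.72) and CHAF1A (-0.58) and the repair factor TONSL (-0.58) fell as well. ASF1A (0.32) and MMS22L, the partner of TONSL (0.35), were higher, signs that turned after GC correction (-0.011 and -0.018).

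Among 13 genes of the E2F and RB family 3 were higher and 6 lower (5 and 3 with library size alone, 6 and 2 with TPM, 2 and 6 after GC correction). For this list and the mitosis list below, the shares of all genes tested were 31.7% higher and 30.6% lower. They were 39.9% and 24.1% with library size alone, 48.9% and 17.1% with TPM, and 24.8% and 31.3% after GC correction. E2F7, a repressor of E2F target genes, rose from 13.5, 13.0 and 13.3 FPKM to 30.6, 30.8 and 30.2 FPKM (1.10 ± 0.038, adjusted p = 3.44e-09). Its change was larger than that of any replication gene, and every treated sample was above every control. E2F8, a related repressor, was lower (-0.48 ± 0.15, adjusted p = 0.0174) at only 2.31, 2.01 and 1.69 FPKM and 1.81, 1.42 and 1.40 FPKM, with overlapping groups, and lost its call without PBS replicate 1 or without rhSema3C replicate 2 or 3 (adjusted p from 0.0563 to 0.0763), with library size alone (adjusted p = 0.0518) and with TPM (-0.22, adjusted p = 0.172). E2F1, an activator, fell from 54.0, 58.6 and 55.2 FPKM to 48.7, 49.3 and 50.2 FPKM (-0.28 ± 0.044, adjusted p = 1.98e-04), but did not pass with TPM (-0.053, adjusted p = 0.348) or after GC correction (-0.012, adjusted p = 0.764). E2F4 (-0.56) and the dimer partner TFDP1 (-0.40) fell too, and the pocket protein RBL2 rose (0.54). E2F2 was lower (-0.46) and E2F5 higher (0.53), both at low levels. E2F2 lost its call without PBS replicate 2 or rhSema3C replicate 1 and E2F5 without PBS replicate 1 or 2 or rhSema3C replicate 1, and both lost it after GC correction, as did E2F2 with library size alone and with TPM. Of 17 mitosis and proliferation genes 11 were lower and 1, BUB1, was higher (9 and 4 with library size alone, 8 and 5 with TPM, and 16 lower after GC correction, with BUB1 at -0.016), with a median of -0.33 and a summed level of 662 to 665 FPKM with PBS and 568 to 583 FPKM with rhSema3C. BIRC5 (-0.996), PLK1 (-0.73), MYBL2 (-0.70), CCNE1 (-0.77) and MKI67, the gene of the Ki-67 antigen (-0.53 ± 0.054, adjusted p = 6.93e-06), were lower. TOP2A, a topoisomerase of S phase to mitosis, had 43.1, 38.9 and 39.7 FPKM and 39.3, 48.8 and 43.7 FPKM, with overlapping groups (0.014 ± 0.070, adjusted p = 0.880). It was higher with TPM (0.24, adjusted p = 0.0221) and lower after GC correction (-0.33, adjusted p = 1.55e-04). The mitosis and proliferation genes moved beside the replication genes, and their part in the changes was not tested.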

How the data were processed

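RNA from 3 rhSema3C and 3 PBS samples of LX-2 cells was made into mRNA libraries, and groups and replicate numbers came from the labels, which call the samples biological replicates. The labels do not say whether they were separate cultures, so p-values measure the spread between these samples. A single table deposited by the authors gave, for each gene and sample, a raw whole-number count and an FPKM value, which the authors had scaled to transcript length and library size. According to the paper's methods the Cufflinks package was used, and the aligner, strand setting and build are not given in the sources used here. The coordinates lie on GRCh38, where 86.8% of the genes found in GENCODE 29 shared a start or an end with it.

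The 35 genes were those whose KEGG column names the DNA replication pathway. They, the companion gene lists and the settings were chosen with earlier results of these data known. The counts of the 14178 genes whose FPKM averaged 0.5 or more were fitted together with the edgeR quasi-likelihood test (TMM factors), with Benjamini-Hochberg adjustment over them. Errors of log2 fold changes are SE from that fit. Named are all 35 genes and, per companion list, up to 4 genes per direction with the largest changes among those called and without overlap of the samples, besides 16 genes set by name. TPM and FPKM alternatives used limma on a log2 scale with a pseudocount (1, or 0.1), and DESeq2 was an alternative on the counts. The correction for GC content and transcript length, a spline of 4 degrees of freedom per library, was added after the data were seen. Replicate numbers did not pair the samples. The test was tried on simulated counts with 200 changed genes and no effect of GC content. Far more genes were called in these data, so that trial does not bear on the choice of scaling or on GC content. R 4.3.3 was used with DESeq2 1.42.0, limma 3.58.1 and edgeR 4.0.16. Counts without molecular identifiers are not counted molecules.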

Additional observations from a re-analysis of the deposited data

How the results depend on the processing

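The count of replication genes that were higher, 7, was 11 with library size alone and with limma on log2(FPKM + 1) or log2(FPKM + 0.1), 15 with TPM and 4 after GC and length correction, and 7 to 9 when 1 sample was left out. The count that were lower, 19, was 10 with TPM and 17 to 19 with 1 sample left out, and 15 to 19 otherwise. The median log2 fold change, -0.18, was -0.074 with library size alone, 0.044 with TPM, -0.075 and -0.079 with limma on log2(FPKM + 1) and log2(FPKM + 0.1), -0.081 for the 32 genes at a mean FPKM of 5 or more, and -0.22 to -0.15 with 1 sample left out. Its distance below the median of all genes ranged from -0.27 to -0.080 over 11 settings, with -0.080 for genes averaging 5 FPKM or more. With a replicate block the counts were 7 and 19 and the median -0.18. The block is given only as a check, since deviations of same-numbered samples correlated at -0.093, -0.084 and -0.037, and it ended the calls of E2F5, RRM1 and TFAM.

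Signs also turned. After GC correction the log2 fold changes were -0.011 for ASF1A, -0.016 for BUB1, -0.086 for DNA2, -0.083 for GMNN, -0.018 for MMS22L, -0.10 for POLA1, 0.064 for POLD4, 0.012 for POLE, 0.21 for POLG, -0.14 for PRIM1, -0.28 for PRIM2, 0.087 for RNASEH1, -0.10 for RRM1, -0.073 for SSBP1 and -0.33 for TOP2A. With TPM they were 0.048 for CDC6, 0.15 for MCM10, 0.17 for PCNA, 0.044 for POLD4, 0.037 for POLE, 0.10 for POLE2, 0.17 for POLG, 0.19 for RFC3, 0.20 for RNASEH1, 0.051 for RPA1, 0.042 for RPA2 and 0.053 for TFAM. With library size alone they were 0.041 for MCM10, 0.047 for PCNA, 0.00084 for POLE2, 0.059 for POLG, 0.075 for RFC3 and 0.086 for RNASEH1. With limma on log2(FPKM + 1) and log2(FPKM + 0.1), MCM10 gave 0.028 and 0.033, PCNA 0.040 and 0.041, POLG 0.046 and 0.049, RFC3 0.065 and 0.068, and RNASEH1 0.071 and 0.078. Among genes averaging 5 FPKM or more, PCNA gave 0.043, POLG 0.055, RFC3 0.071 and RNASEH1 0.082. PRIM2 gave -0.0031 with DESeq2, -0.0030 with median-of-ratios scaling and -0.0031 without the filter. With 1 sample left out, PRIM2 ranged from -0.026 to 0.045, TOP2A from -0.063 to 0.087, POLG from -0.10 to 0.014 and RNASEH1 from -0.043 to 0.015. The cause was not tested. Over the 35 genes, 466 of 557 alternative values kept their direction and their side of the threshold, and 35 changed sign. At 68267808 to 89245585 counts per sample, the 3 replicates per group limit small changes.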

Other observations

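Genes of repair and of mitochondrial DNA replication, which share enzymes with the fork, were counted apart from the 35 replication genes, and the differences between the lists were not tested. Without those genes, 18 of 26 tested genes of nucleotide excision repair were higher with rhSema3C and 4 lower (19 and 3 with library size alone, 21 and 3 with TPM, 6 and 6 after GC correction). In mismatch repair 5 of 7 were higher and the other 2 did not pass (5, 7 and 3 higher under the same settings), and in homologous recombination 17 of 31 were higher and 6 lower (18 and 4, 25 and 1, 11 and 6). Base excision repair, with 5 of 21 higher and 9 lower (5 and 8, 9 and 5, 7 and 10), had more genes lower than higher except with TPM. The higher share in nucleotide excision repair thus rested on the fits without GC correction. The median log2 fold changes were 0.26, 0.29, 0.35 and -0.13. Over all genes tested, 31.7% were higher and 30.6% lower. With library size alone these shares were 39.9% and 24.1%, with TPM 48.9% and 17.1%, and after GC correction 24.8% and 31.3%.

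Of 11 translesion and repair polymerases tested, which copy past damaged bases or fill gaps, 5 were higher and 2 lower (7 and 2 with library size alone, 8 and 1 with TPM, 5 and 2 after GC correction). The shares of all genes tested are those given above for the repair lists. POLI rose from 0.934, 0.739 and 0.823 FPKM to 1.74, 2.24 and 1.72 FPKM (log2 fold change 1.08 ± 0.13, SE; adjusted p = 2.42e-05, edgeR). REV1 (0.58), POLK (0.58) and POLB (0.49), a gap-filling enzyme of base excision repair, were higher, and POLH (-0.41) and MAD2L2 (-0.32) were lower, though MAD2L2 did not pass with TPM (-0.088, adjusted p = 0.0794) or after GC correction (-0.064, adjusted p = 0.223). Of 9 genes of mitochondrial DNA replication 2 were higher and 2 lower (3 and 1 with library size alone, 4 higher with TPM, 4 and 4 after GC correction), with 1 lower without PBS replicate 3 or without rhSema3C replicate 1 or 3. TFAM was lower (-0.17 ± 0.067, adjusted p = 0.0456) but kept its call in only 1 of the 6 fits that left out a sample, the one without rhSema3C replicate 2. POLG, the catalytic subunit of the mitochondrial polymerase, did not pass (-0.050 ± 0.056, adjusted p = 0.456) but was higher after GC correction (0.21, adjusted p = 0.00229). Its accessory subunit POLG2 rose from 2.02, 1.91 and 1.63 FPKM to 3.27, 3.46 and 3.36 FPKM (0.75 ± 0.10, adjusted p = 8.07e-05), the helicase TWNK was lower (-0.45 ± 0.10, adjusted p = 0.00218) but did not pass with TPM (-0.21, adjusted p = 0.102), and LIG3, a ligase of mitochondria, was higher (0.29).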
